A study of Mus musculus with 20 samples.

Results

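Clec14a, Cd93, Mmrn1, Mmrn2, Egfl7, Emcn, Ecscr and Cd34 encode glycoproteins and secreted ligands of the blood vessel wall, and they were taken from the count table by gene symbol, 8 of 55866 genes. Reads were assigned to 7 of the 8. Ecscr was listed at 0 in all 20 libraries. They were picked by name rather than by a threshold on measured values, with earlier results of these data known. The levels are given in the IP fraction, the ribosome-bound mRNA of endothelial cells (EC), and in the input, the homogenate of the same tumor.

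The RNA came from RiboTagEC mice (Rpl22HA/HA x Cdh5CreERT2, C57BL/6J, female), in which a tamoxifen-inducible Cre under the EC promoter Cdh5 puts an HA tag on the ribosomal protein Rpl22. All groups shared this genotype, the tamoxifen (75 mg/kg on 5 days at 3 weeks of age) and the tumor, Py8119 mouse mammary tumor cells placed in a mammary fat pad at 8 weeks. The mice received control mouse IgG, or 25 mg/kg of 6-3-A6, a neutralizing antibody against Notch4, and tumors were taken after 10 days. There were 5 tumors per treatment, and each tumor gave 1 IP and 1 input library, which makes 4 groups of 5 libraries. The host Cre can label any EC that uses Cdh5, so tumor vessels are not separated from fat pad vessels in the resected tissue. The share of ECs that carried the tag is not known here.

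CLEC14A and CD93 are single-pass receptors of the group 14 C-type lectin family, together with thrombomodulin and endosialin, and both bind the extracellular matrix protein multimerin-2 (MMRN2) on the vessel wall. This contact takes part in EC migration and sprouting, and CLEC14A is known as a marker of tumor vessels. Endomucin (Emcn) and CD34 are sialomucins that cover the luminal side of ECs, Egfl7 is secreted by ECs and hosts the microRNA miR-126 in an intron, Ecscr is a transmembrane regulator of EC movement, and multimerin-1 (Mmrn1) is stored in platelets and made by lymphatic ECs.

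Promoter sequence of RefSeq (GRCm38.p6) was found for 5 of the 8 genes, with 7 start sites in all. The 250 bases before the start are shown for 4 genes that stand for the receptors, the sialomucins and the multimerins: Clec14a with the largest difference between the fractions, Emcn and Cd34, and Mmrn1 with the smallest. Capitals mark the core letters GGAAG of the ETS family, which holds the EC factors Erg and Fli1, on either strand (CTTCC on the other).
Clec14a, chr12:58269259-58269508, minus strand: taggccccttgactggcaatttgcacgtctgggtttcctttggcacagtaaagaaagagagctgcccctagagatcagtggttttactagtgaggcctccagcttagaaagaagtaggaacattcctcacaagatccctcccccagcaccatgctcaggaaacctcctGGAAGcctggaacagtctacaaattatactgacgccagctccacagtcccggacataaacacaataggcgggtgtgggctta
Emcn, chr3:137340828-137341077, plus strand: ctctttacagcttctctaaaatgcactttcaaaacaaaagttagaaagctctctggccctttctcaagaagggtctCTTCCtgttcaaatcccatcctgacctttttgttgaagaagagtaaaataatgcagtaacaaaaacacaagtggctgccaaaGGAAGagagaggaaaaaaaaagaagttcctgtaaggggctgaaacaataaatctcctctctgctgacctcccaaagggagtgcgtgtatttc
Cd34, chr1:194938571-194938820, plus strand: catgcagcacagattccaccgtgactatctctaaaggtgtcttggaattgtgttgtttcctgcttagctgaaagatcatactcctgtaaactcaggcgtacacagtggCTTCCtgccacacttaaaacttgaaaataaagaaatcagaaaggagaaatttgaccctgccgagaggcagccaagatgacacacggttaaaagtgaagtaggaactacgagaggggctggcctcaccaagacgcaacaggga
Mmrn1, chr6:60944067-60944316, plus strand: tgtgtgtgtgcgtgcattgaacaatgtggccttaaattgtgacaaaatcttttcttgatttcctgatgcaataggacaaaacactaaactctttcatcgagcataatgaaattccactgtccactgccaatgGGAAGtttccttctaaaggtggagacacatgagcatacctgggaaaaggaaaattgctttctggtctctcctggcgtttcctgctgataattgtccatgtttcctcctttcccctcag
The letters were present 1 time in Clec14a, 82 bases before the start, 2 times in Emcn, at 92 and 174 bases, 1 time in Cd34 at 142 bases and 1 time in Mmrn1 at 118 bases. The 3 start sites of Egfl7 held 4, 2 and 0 matches. GGAAG or CTTCC stood in 64.1% of all 32851 promoters of the table over the same 250 bases, so that a match is common. AGATAA, the letters of GATA factors, stood in 9.99% of all promoters and in none of these 7. ACAAAG of SOX factors (16.5% of all) and GGGTGG of KLF factors (28.1% of all) were each met 1 time, both at start sites of Egfl7.

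The 20 libraries held between 11881214 and 26728205 counts on genes, and 3 counts, the limit that a count of 0 allows, correspond to 0.104 to 0.315 CPM, counts scaled to a common library total with TMM factors. The 16 EC reference genes (Pecam1, Cdh5, Kdr and others, none of them a member) were all called higher in IP, and their median log2 difference from input was 4.30. Among them the difference was smallest for Tal1 (2.53) and largest for Sox18 (5.42). Of the macrophage markers, 5 of 8 tested were lower in IP, where 20.8% of all genes tested were lower, and 0 higher, and their summed level still lay between 2873 and 8019 CPM in the IP libraries. The mean log2 CPM of the EC reference genes was lowest in IP of control IgG tumor 4 (5.71) and of 6-3-A6 tumor 2 (5.52), against 6.45 to 7.89 in the other 8 IP libraries. For the 6-3-A6 tumors a second label names the opposite fraction, and the titles were followed here. In these 5 tumors the reference mean was 2.27 to 3.23 in the libraries titled input and 5.52 to 7.66 in those titled IP. The input of 6-3-A6 tumor 4 stood apart as a whole library. Its median chi-square per gene against the other 6-3-A6 inputs was 30.2 to 47.6, against 4.16 to 21.2 among those, and its TMM factor was 0.678, against 0.894 to 1.12 in the other 19 libraries. It had the highest Tek (10.6 CPM) and Erg (22.1 CPM) and the lowest Robo4 (0.42 CPM) and Cldn5 (0 CPM) of the 10 inputs, and its deviations did not follow those of the IP of the same tumor (r = -0.08). Without it, all 7 members were called higher in IP over the remaining libraries, from 2.28 for Cd93 to 5.06 for Clec14a on the log2 scale.

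Clec14a (chr12:58311506-58316076, minus strand) had the largest difference between the fractions, with few counts in whole tumor and many in the EC fraction. Positions here and below are those of the count table, which differ from GRCm38 for all 8 genes and are taken as GRCm39. In control IgG input its level was 0.946, 1.35, 1.62, 1.47 and 1.54 CPM in tumors 1 to 5, and in control IgG IP 45.9, 38.5, 92.2, 19.3 and 27.9 CPM. In 6-3-A6 tumors it was 2.49, 1.32, 1.13, 0.630 and 1.92 CPM in input, and 106.5, 10.3, 59.9, 57.2 and 50.2 CPM in IP. The lowest IP library (6-3-A6 tumor 2) lay above the highest input library, so that the fractions did not overlap in either treatment. Over the 20 libraries Clec14a was 34.7-fold higher in IP than in input (log2 fold change 5.12 ± 0.37 SE, adjusted p = 4.94e-10, edgeR quasi-likelihood test).

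Cd93 (chr2:148278560-148285483, minus strand), a lectin that monocytes and neutrophils also carry, was the most abundant member per kb in every group, and it differed less between the fractions than Clec14a. Its input level was 153.0, 192.3, 261.0, 211.6 and 185.0 CPM in control IgG tumors 1 to 5 and 270.2, 173.5, 227.1, 247.7 and 313.0 CPM in 6-3-A6 tumors. In IP it was 1332, 1365, 1320, 455.6 and 871.3 CPM with control IgG, and 1295, 261.7, 763.4, 1252 and 1585 CPM with 6-3-A6. The IP library of 6-3-A6 tumor 2 lay inside the range of the 6-3-A6 input libraries, while the control fractions did not overlap. The IP level was 4.72-fold above input (2.24 ± 0.256, adjusted p = 4.83e-07). The summed macrophage markers were 5737 to 13400 CPM in the 10 input libraries, and their part in the input level of Cd93 was not tested.

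Mmrn2 (chr14:34097422-34126244, plus strand), the matrix ligand that both receptors share, was also apart between the fractions in every library. It stood at 11.0, 7.78, 5.71, 5.43 and 6.15 CPM in control IgG input and at 247.1, 143.4, 150.6, 34.5 and 87.3 CPM in control IgG IP. With 6-3-A6 it stood at 7.30, 3.90, 5.23, 2.94 and 6.18 CPM in input and at 118.2, 21.2, 81.2, 135.8 and 156.6 CPM in IP. No input library reached the lowest IP library, that of 6-3-A6 tumor 2. The difference was 19.1-fold (4.26 ± 0.348, adjusted p = 2.91e-09).

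Mmrn1 (chr6:60901960-60966362, plus strand), its paralog, had 722 counts in the 20 libraries together. In control IgG input it was 1.00, 0.423, 0.511, 0.509 and 0.385 CPM and in control IgG IP 4.46, 1.43, 1.54, 2.14 and 2.79 CPM. In 6-3-A6 input it was 0.453, 0.870, 0.619, 4.72 and 0.241 CPM and in 6-3-A6 IP 3.09, 0.973, 3.22, 4.42 and 6.05 CPM. The input of 6-3-A6 tumor 4, the library that stood apart, exceeded 9 of the 10 IP libraries. It had the highest Lyve1 (54.7 CPM, against 7.20 to 25.0 in the other 9 input libraries) and the highest Reln (5.25 CPM, against 0.0846 to 0.668), both markers of lymphatic ECs. Flt4, the lymphatic receptor VEGFR3 that tumor blood vessels also carry, was the lowest of the 10 inputs there (1.99 CPM, against 3.33 to 7.51), and Pdpn, podoplanin, lay within the range of the others (21.7 CPM, against 18.2 to 35.1). Prox1, the defining lymphatic factor, was 1.78 CPM there and 1.02 to 2.08 CPM in the other input libraries. Ccl21a was listed at 0 in all 20 libraries, which, as for Ecscr below, gives no value for its expression, and the 6 lymphatic markers summed to 85.4 CPM against 33.0 to 67.3 CPM. The part of lymphatic cells in this value was not tested. Mmrn1 was 3.36-fold higher in IP over all libraries (1.75 ± 0.438, adjusted p = 0.00333), and in 6-3-A6 tumors alone the difference missed the threshold (1.44 ± 0.715, adjusted p = 0.174), while without the input of 6-3-A6 tumor 4 it was 2.61 with an adjusted p of 0.00476. Of 4 platelet markers tested, 0 were higher in IP, and Pf4, platelet factor 4, was lower (log2 fold change -0.88).

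Egfl7, a secreted factor that ECs deposit around themselves, had few counts in the input. It was 0.111, 1.18, 0.767, 0.339 and 0.192 CPM in control IgG input and 13.2, 6.31, 10.5, 2.20 and 3.88 CPM in control IgG IP. The 6-3-A6 input libraries held 0.623, 0.557, 0.619, 0 and 0.561 CPM and the IP libraries 11.8, 3.89, 14.6, 14.4 and 5.95 CPM. Fractions did not overlap, and the difference was 17.2-fold (4.11 ± 0.438, adjusted p = 1.76e-07). Egfl7 lies at chr2:26470026-26483132 on the plus strand, and 6482 of its 13107 bases (49.5%) are also part of the span of Gm20532, which received 34 counts in all.

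Emcn (chr3:137046828-137137946, plus strand), the EC sialomucin, was next to Cd93 in level per kb of exon, though not per kb of the whole span. Its input level was 28.4, 27.4, 20.5, 14.1 and 12.4 CPM with control IgG and 21.8, 13.4, 21.2, 17.8 and 24.9 CPM with 6-3-A6. Its IP level was 754.4, 443.3, 649.3, 150.4 and 256.2 CPM with control IgG and 628.6, 107.4, 427.6, 629.9 and 605.7 CPM with 6-3-A6. The lowest IP library was above the highest input library, and the overall difference was 23.0-fold (4.53 ± 0.331, adjusted p = 6.03e-10).

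Cd34 (chr1:194621127-194643587, plus strand), the sialomucin also known from blood stem cells, was at 3.95, 11.5, 8.18, 7.52 and 7.95 CPM in control IgG input and at 88.7, 158.8, 237.5, 60.2 and 126.4 CPM in control IgG IP. In 6-3-A6 tumors it was at 9.0, 5.53, 9.34, 5.88 and 8.34 CPM in input and at 232.5, 36.1, 151.1, 230.0 and 165.9 CPM in IP. Its fractions were apart in every library, by 19.2-fold (4.26 ± 0.31, adjusted p = 5.56e-10). Control IgG tumor 1 had the lowest Cd34 of all 10 tumors in input, although its EC reference mean was not low in either fraction (3.25 in input and 7.89 in IP). Of the 22461 bases of Cd34, 5521 are shared with the antisense gene Gm16897, which collected 1656 counts against 30485 for Cd34.

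**Figure D1:**
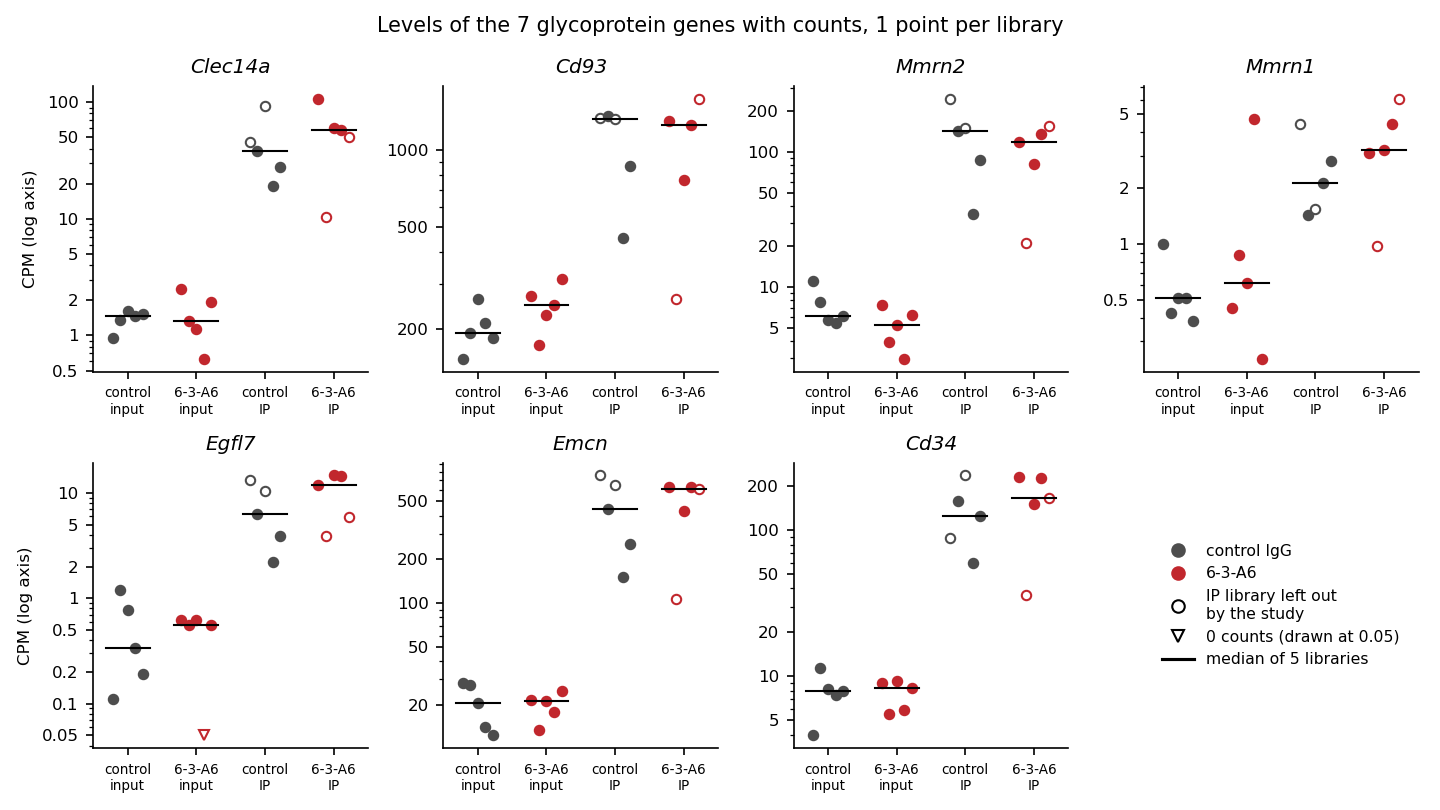
CPM on a log axis of the 7 members with counts, 1 point per library, in control IgG (grey) and 6-3-A6 (red) input and IP; lines are medians of 5 libraries, open circles are IP libraries that the study left out, and the triangle is a library at 0 counts. The IP points lie above the input points for Clec14a, Mmrn2, Egfl7, Emcn and Cd34, while 1 IP library of Cd93 and several of Mmrn1 overlap the input of 6-3-A6 tumors.

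All 7 members with counts passed the filter on low counts over the 20 libraries, and 7 of 7 were called higher in IP, where 19.6% of the 14488 genes tested were called higher. Their median log2 fold change was 4.26, beside -0.06 over all genes tested and 4.30 over the EC reference genes. Within control IgG tumors 7 of 7 were called higher (10.1% of 13671 genes), between 2.09 for Mmrn1 and 5.01 for Clec14a. With the tumor as a block, all 7 were again called, and the block raised the calls over all genes in either direction from 2163 to 4640. Within 6-3-A6 tumors 6 of 7 were called higher (9.82% of 13790 genes), between 2.08 for Cd93 and 5.23 for Clec14a. The difference of the difference, fitted as an interaction of treatment and fraction, was called for 0 members (0% of 14488 genes, edgeR, 125 of them under 0.05 before adjustment, and 0 calls by DESeq2). Its estimates ran from -0.65 ± 0.867 for Mmrn1 to 0.47 ± 0.86 for Egfl7, and that of Mmrn1 was 0.54 without the input of 6-3-A6 tumor 4. When control IgG tumor 4 and 6-3-A6 tumor 2 were left out, a choice made after the data had been seen, the same 7 members were called and Clec14a reached a log2 fold change of 5.36.

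Ecscr, the regulator of EC movement, gave no measurement. Its 9271 bases lie wholly inside 1700066B19Rik, a gene on the opposite strand with 186 counts. In this table reads were counted over whole gene spans, introns included, and of the 12587 genes that lie within another gene 0 have counts. Of these, 6254 lie only within genes of the opposite strand, so that strand did not separate such pairs. The 0 of Ecscr thus gives no value for its expression. If the shared bases of Egfl7 and Cd34 were left uncounted in the same way, 49.5% and 24.6% of their spans are missing from their counts. The levels of both would then be too low, by an extent that is not known, since the share of exon bases was not determined. The other 5 members share no base with another gene.

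**Figure D2:**
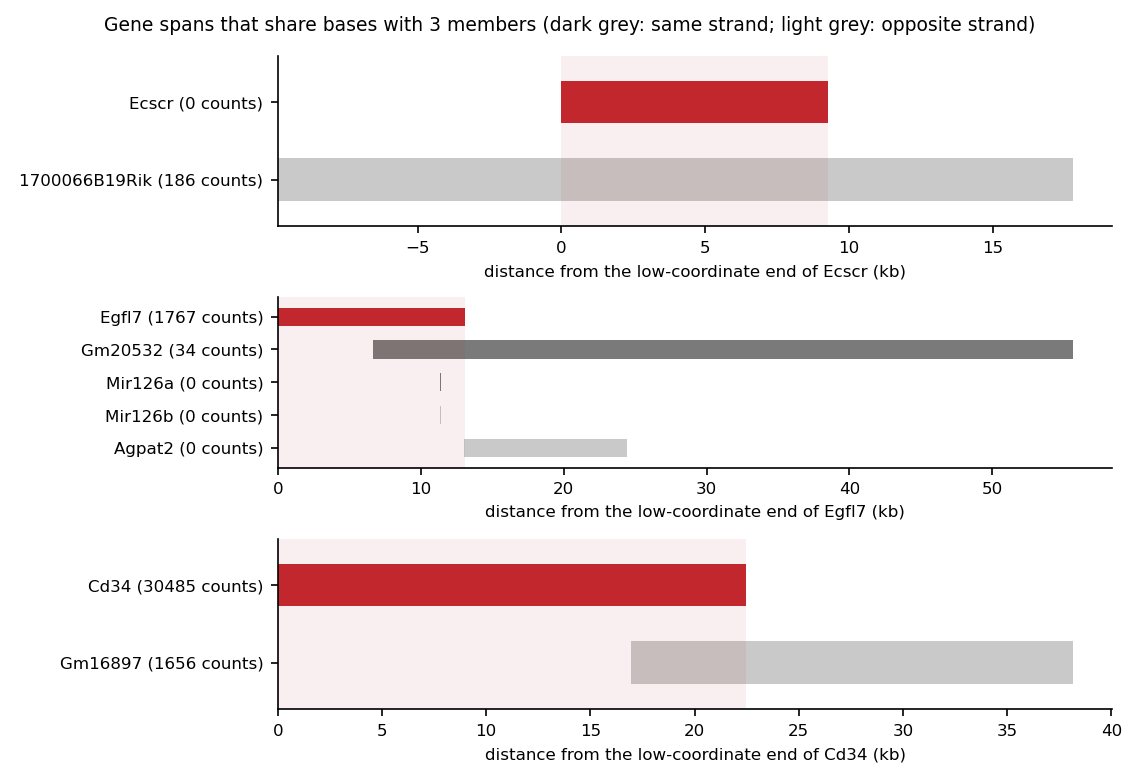
Spans of Ecscr, Egfl7 and Cd34 (red) and of the genes that share bases with them (dark grey on the same strand, light grey on the opposite strand), as distance in kb from the low-coordinate end of each member, with total counts over 20 libraries. Ecscr is covered in full by 1700066B19Rik, Egfl7 by Gm20532 over its second part, and Cd34 by Gm16897 over its last part.

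Levels of different genes were set side by side as CPM per kb, first of annotated exon. In control IgG IP the order of the means was Cd93 (160.1 ± 59.7, SD, n = 5), Emcn (83.3 ± 47.1), Mmrn2 (33.4 ± 19.98), Cd34 (18.4 ± 9.43), Clec14a (9.79 ± 6.21), Egfl7 (2.02 ± 1.28) and Mmrn1 (0.421 ± 0.211). In 6-3-A6 IP the order was the same, with means of 154.5, 88.7, 25.8, 22.4, 12.4, 2.83 and 0.605 CPM per kb. Each gene was above the next in 5 of 5 libraries of both groups, except that Mmrn2 was above Cd34 in 3 of 5 libraries with 6-3-A6, and the ranges of neighbours over the libraries overlapped, other than those of Clec14a and Egfl7 in control IgG IP and of Egfl7 and Mmrn1 in 6-3-A6 IP. In input, Cd93 stood apart from all others, with 30.0 ± 5.97 CPM per kb in control IgG and 36.9 ± 7.75 in 6-3-A6 tumors, against 3.8 ± 1.36 and 3.67 ± 0.806 for Emcn as the next. Because reads over introns also count, and parts of Egfl7 and Cd34 may not have been counted, these levels per kb are approximate. Over the whole spans, with 91119 bases for Emcn and 4571 for Clec14a, Clec14a came second after Cd93 in IP of both treatments, and Emcn came at rank 4 by the mean in both, at 4.95 and 5.27 CPM per kb of span against 9.79 and 12.4 for Clec14a. The order of the members below Cd93 thus depended on the length used.

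Enrichment was then followed within each tumor, as log2 CPM in IP minus log2 CPM in input of the same number, beside the mean of the EC reference genes. Clec14a was enriched by 5.44, 4.72, 5.74, 3.62 and 4.09 in control IgG tumors 1 to 5 and by 5.36, 2.86, 5.60, 6.27 and 4.63 in 6-3-A6 tumors. The reference mean was enriched by 4.63, 3.92, 4.45, 2.87 and 3.57 with control IgG and by 4.39, 2.66, 4.53, 5.39 and 4.02 with 6-3-A6. Clec14a thus lay above the reference mean in 10 of 10 tumors. Cd93 lay below it in 10 of 10 tumors, at 0.59 to 3.12, and Mmrn1 in 9 of 10. Emcn was above in 8, Cd34 in 6, Mmrn2 in 5 and Egfl7 in 3 of 10 tumors. Control IgG tumor 4 and 6-3-A6 tumor 2 had the lowest enrichment of Clec14a, Cd93, Mmrn2, Emcn and Cd34 in their treatment groups, as they had for the reference genes.

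**Figure D3:**
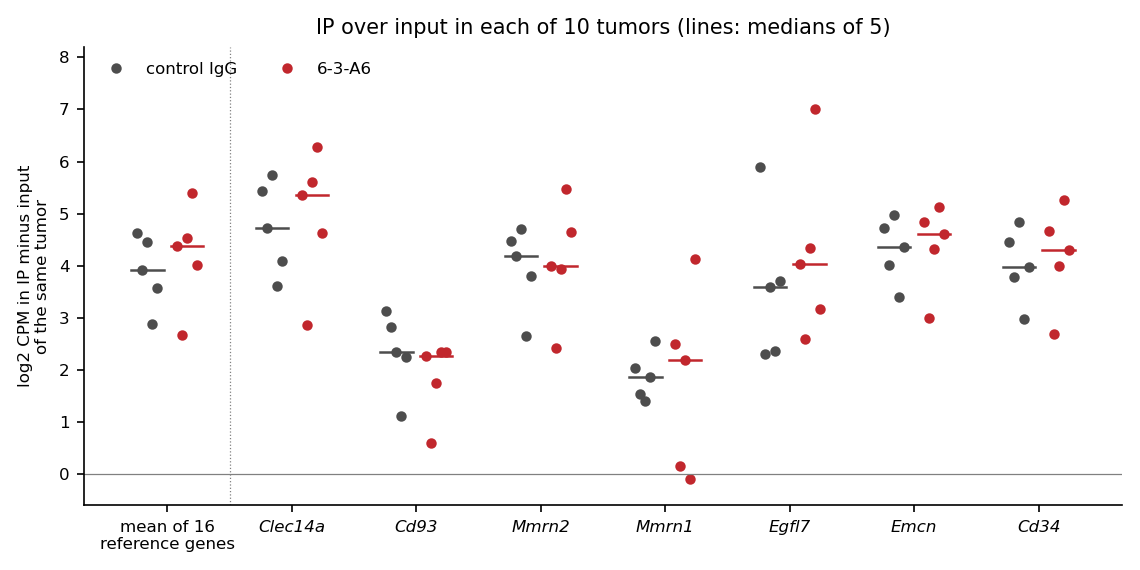
log2 CPM in IP minus input of the same tumor for the mean of 16 EC reference genes and for each member, with 1 point per tumor (grey control IgG, red 6-3-A6) and lines at the medians of 5. The points of Clec14a run from 2.86 to 6.27 and those of Cd93 from 0.59 to 3.12.

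Relatives and partners of the members were counted from lists chosen with earlier results of these data known. The lists hold members too, so their counts and medians partly repeat the results above. Of all genes tested, 19.6% were called higher in IP and 20.8% lower. Of 10 group 14 lectins and their partners, all tested, 5 were higher in IP, namely Clec14a, Cd93, Mmrn2, Igfbp7 (4.05), a matrix protein that CD93 binds, and Msn (1.01), moesin, which ties CD93 to the cytoskeleton, while Dag1 was lower (-0.32). Thrombomodulin (Thbd) at 0.37 and endosialin (Cd248), a lectin of pericytes and fibroblasts, at -0.56 did not pass the test. In the EMILIN and multimerin family, both multimerins were higher, Emilin2 was lower (-0.46), Emilin1 did not pass (0.32) and Emilin3 was not tested. Of the sialomucins, Emcn, Cd34 and podocalyxin (Podxl, 1.5) were higher in IP, Cd164 was lower (-0.59) and Podxl2 was not tested. The median log2 fold changes of these 3 lists, with the members included, were 0.69, 1.03 and 2.88, beside -0.06 over all genes tested.

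The treatment comparison was made first in all 10 IP libraries. In IP levels between tumors, more EC RNA per cell, more ECs in a sample and a better recovery of EC ribosomes cannot be told apart. None of the 7 members was called between 6-3-A6 and control IgG: edgeR called 0% of 13602 genes, 292 of which had p under 0.05 before adjustment, and DESeq2 called 0. The log2 fold changes were 0.33 ± 0.507 for Clec14a, -0.06 ± 0.429 for Cd93, -0.38 ± 0.518 for Mmrn2, 0.52 ± 0.444 for Mmrn1, 0.48 ± 0.473 for Egfl7, 0.08 ± 0.486 for Emcn and 0.27 ± 0.449 for Cd34, each with an adjusted p of 1.00. The treatment groups overlapped for every member. Their median was 0.27, beside 0.01 over all genes tested and -0.06 over the EC reference genes.

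For its own comparison the study kept 6 of these libraries after an inspection of their expression by PCA, control IgG tumors 2, 4 and 5 and 6-3-A6 tumors 1, 3 and 4. Clec14a was 38.5, 19.3 and 27.9 CPM in the kept control IgG libraries and 106.5, 59.9 and 57.2 CPM in the kept 6-3-A6 libraries. This difference was called (2.56-fold, 1.35 ± 0.304, adjusted p = 0.0345). The p-values here do not account for the choice of libraries by their expression. In the left-out libraries Clec14a was 45.9 and 92.2 CPM with control IgG and 10.3 and 50.2 CPM with 6-3-A6. Egfl7 was 6.31, 2.20 and 3.88 CPM against 11.8, 14.6 and 14.4 CPM in the kept libraries and was called as well (3.20-fold, 1.68 ± 0.326, adjusted p = 0.0231). In the left-out libraries it was 13.2 and 10.5 CPM with control IgG and 3.89 and 5.95 CPM with 6-3-A6. Together 2 of 7 members were called higher, where 2.57% of 13999 genes were. Cd93 (0.27 ± 0.373, adjusted p = 0.746), Mmrn2 (0.31 ± 0.408, adjusted p = 0.735), Mmrn1 (0.72 ± 0.332, adjusted p = 0.266), Emcn (0.96 ± 0.353, adjusted p = 0.16) and Cd34 (0.80 ± 0.328, adjusted p = 0.205) did not pass. The ranges of the groups were apart for Mmrn1 as for the called genes, and overlapped for Cd93, Mmrn2, Emcn and Cd34.

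The 16 EC reference genes also lay higher with 6-3-A6 in the same libraries, by 0.43 to 1.99 on the log2 scale, though most were not called. The EC reference mean was 7.20, 5.71 and 6.45 log2 CPM in the kept control IgG libraries and 7.61, 7.48 and 7.66 in the kept 6-3-A6 libraries. In the inputs of these tumors it was 3.28, 2.83 and 2.88 with control IgG. With 6-3-A6 it was 3.23, 2.95 and 2.27 in input, the last in the library that stood apart. Its rise from input to IP was 3.92, 2.87 and 3.57 with control IgG and 4.39, 4.53 and 5.39 with 6-3-A6. The part of IP recovery in these values was not tested. Of the 16 reference genes, 5 were called higher (Cldn5 at 1.99, Sox17 at 1.56, Sox18 at 1.51, Erg at 1.37 and Tal1 at 1.12). The median was 0.85 over the list, beside 0.80 over the members and -0.05 over all genes tested. Macrophage markers went the other way: 6 of 8 tested were called lower (Mrc1, Adgre1, Csf1r, Lyz2, C1qa and Cd68, from -1.54 to -0.88), with a median of -1.01, where 2.04% of all genes tested were called lower, and the 9 markers summed to 5994 to 6965 CPM with control IgG and 2873 to 3460 CPM with 6-3-A6, Itgam being at 0 in all libraries. Cd248 was also lower (-1.55, adjusted p = 0.0271), and so were 2 of 7 fibroblast markers (Col1a2 and Dcn), with a median of -0.95, and 1 of 6 mural markers (Cspg4, -2.21), with a median of -1.01. The summed fibroblast markers overlapped, at 1203 to 2635 CPM with control IgG and 565.5 to 1232 CPM with 6-3-A6, and the summed mural markers did not, at 124.3 to 167.4 CPM and 71.98 to 109.5 CPM. Of the epithelial markers, 2 of 6 were called lower (Epcam and Cdh1), and the list summed to 323.7 to 387.1 CPM with control IgG and to 166.6 to 237.3 CPM with 6-3-A6, with no overlap. Of the erythroid markers, 3 of 4 tested were called higher (the globins Hba-a1, Hba-a2 and Hbb-bs, whose reads near-identical copies may share, with a median of 3.21 over the tested genes), and the list summed to 20.5 to 45.2 CPM and 29.6 to 545.3 CPM. Of the hematopoietic progenitor markers, 1 of 3 tested was called lower (Flt3, -1.28) and 0 higher, while the median of the list was 0.72 and its sum was higher with 6-3-A6 without overlap, at 169.6 to 327.1 CPM against 468.2 to 472.0 CPM. Kit (0.72) and Ly6a (0.93), which is also known from ECs, did not pass. The part of these cells in the differences of Clec14a and Egfl7 was not tested. With the EC reference mean as a covariate, Clec14a was at 0.64 (adjusted p = 0.907) and Egfl7 at 0.72 (adjusted p = 0.867), and 0 members were called (edgeR called 1 of all genes). That mean was itself apart by treatment in these 6 libraries, so the fit cannot separate it from treatment. With 1 of the 6 libraries left out, and so fewer libraries in the test, Clec14a stayed between 1.01 and 1.67 and Egfl7 between 1.42 and 2.15 on the log2 scale. Clec14a then missed the threshold without control IgG tumor 4 or 5, or without 6-3-A6 tumor 1, 3 or 4 (adjusted p between 0.0595 and 0.0906, edgeR), and Egfl7 without 6-3-A6 tumor 3 or 4 (adjusted p of 0.0741 and 0.0679).

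**Figure D4:**
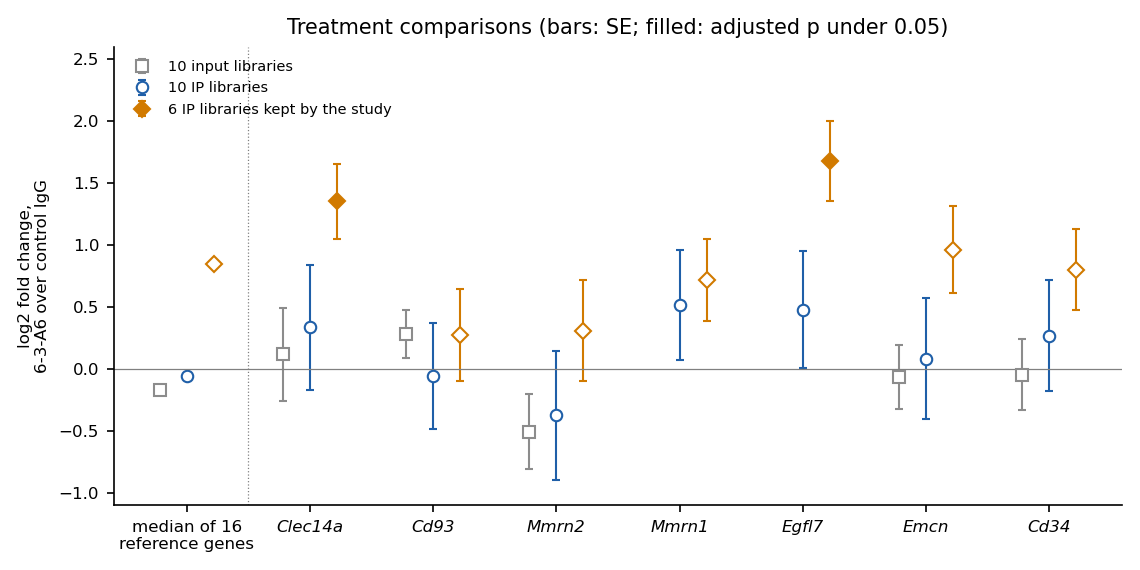
log2 fold change of 6-3-A6 over control IgG with its SE for each member in 10 input libraries (squares), 10 IP libraries (circles) and the 6 IP libraries kept by the study (diamonds), with the median of 16 EC reference genes at the left; filled symbols have an adjusted p under 0.05. Only Clec14a and Egfl7 in the 6 kept libraries are filled, at 1.35 and 1.68, and Mmrn1 and Egfl7 were not tested in input.

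In input no member was called by treatment. The 5 members tested there were between -0.51 ± 0.301 (Mmrn2) and 0.28 ± 0.193 (Cd93), all with an adjusted p of 1.00 (edgeR called 0% of 13683 genes, 180 of which had p under 0.05 before adjustment, and DESeq2 called 0). Mmrn1 and Egfl7 had too few counts in input to be tested.

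To set the members against the level of other EC genes, the mean log2 CPM of the reference genes was subtracted in each IP library. In the 10 IP libraries the treatment groups overlapped for all 7 members. The differences of the means (6-3-A6 minus control IgG) lay between -0.48 for Mmrn2 and 0.47 for Egfl7, with 0.12 for Clec14a. In the 6 kept libraries Clec14a overlapped as well, at -1.67 ± 0.25 with control IgG and -1.42 ± 0.49 with 6-3-A6 (SD, n = 3). Egfl7 did not overlap (-4.49 ± 0.03 against -3.81 ± 0.22), nor did Cd93, which lay lower with 6-3-A6 (3.22 ± 0.10 against 2.49 ± 0.34). With the other 4 libraries included, the groups overlapped for both. Emcn was at 1.56 ± 0.03 with control IgG and 1.53 ± 0.23 with 6-3-A6 in the kept libraries. These are descriptions without a test.

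**Figure D5:**
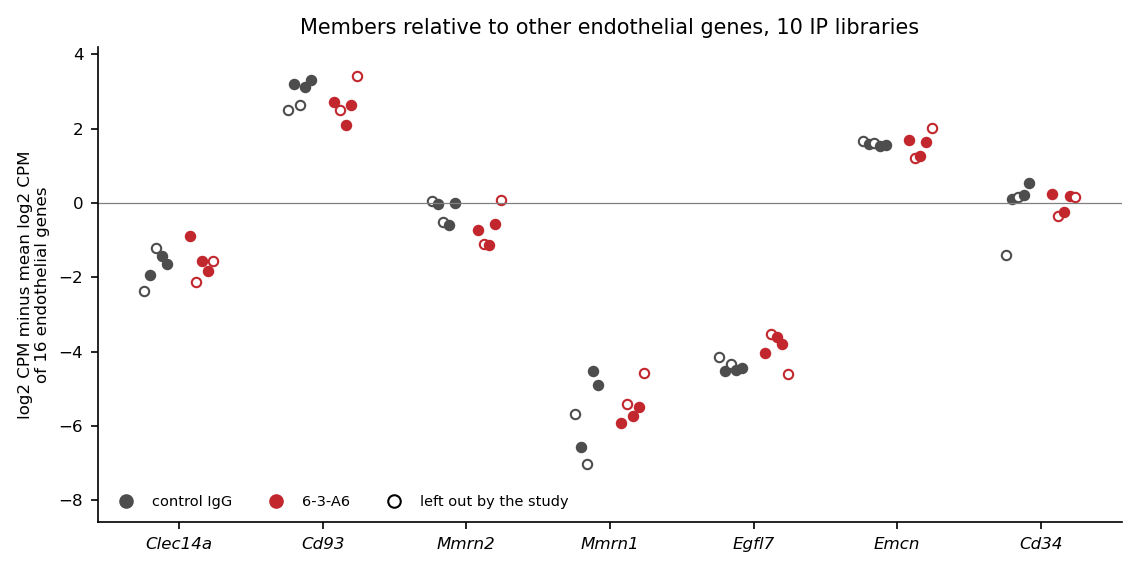
log2 CPM of each member minus the mean log2 CPM of 16 EC reference genes in the 10 IP libraries (grey control IgG, red 6-3-A6, open where the study left the library out). Filled points are apart by treatment for Cd93 and Egfl7, and with the open points the treatments overlap for both.

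The members varied together over the 10 IP libraries, which also differ in the EC reference mean (5.52 to 7.89 log2 CPM). Pearson's r of log2 CPM was between 0.42 and 0.96 over the 21 pairs of members, with a median of 0.78, and the correlation with the EC reference mean was highest for Emcn (0.98) and lowest for Mmrn1 (0.53). The 5 genes most like Clec14a, of 9081 with at least 10 CPM on average, were Cd300lg (r = 0.979), Tmem255a (0.978), Adgrl4 (0.976), Acvrl1 (0.973) and Atp8b1 (0.971). Those most like the mean of the members were Igfbp7 (0.988), Plvap (0.985), Pcdh12 (0.982), Adcy4 (0.981) and C130074G19Rik (0.981). Adgrl4 and Plvap are EC surface proteins, and Acvrl1 is the EC receptor ALK1.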

How the data were processed

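RNA was sequenced from IP and input fractions of 10 Py8119 tumors of RiboTagEC mice (20 libraries, 5 per group, single reads). The raw counts per gene, as deposited, were made by the authors with STAR 2.7.4a and featureCounts 2.0.1. The submitters' processing notes also list featureCounts 1.5.2 and the builds mm10 and GRCh38, and the positions in the table are not those of mm10. The signal columns of the authors' DESeq2 table are counts divided by size factors. Their values equal the raw counts over a constant per library for 100% of genes with counts (relative tolerance 1e-06), which named the 6 libraries kept by the study. The same table holds the authors' log2 fold changes and p values, which were not used.

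Genes were tested with edgeR 4.0.16 in R 4.3.3 (quasi-likelihood F test with TMM factors and filterByExpr, p adjusted by Benjamini-Hochberg over all genes tested, threshold 0.05), fitted on the whole table. Comparisons were IP against input in all 20 libraries (treatment as a term) and within each treatment, 6-3-A6 against control IgG in 10 IP, 6 kept IP and 10 input libraries, and the interaction. SE is the log2 fold change divided by the root of F. CPM was scaled by TMM factors, and log2 CPM used a prior count of 2. Alternatives were DESeq2 1.42.0, RLE factors, no filter on low counts, a replicate block, the EC reference mean as a covariate and leaving out each library. The fits were tested on simulated counts. A 2-fold treatment change was called for 30.4% of changed genes in the 10 IP libraries and 32% in the 10 input libraries. For the interaction it was 6.73%. A 4-fold change was called for 87.8%, 84.5% and 61.5%. A lack of calls in these comparisons thus says little of 2-fold changes. All 8 members are named in the text. Relatives of the members and EC reference genes are named when they passed a treatment comparison or had the largest or smallest IP over input change in their list. Some further relatives, and genes of the cell type marker lists, were chosen after their values were seen. The members and lists were chosen with earlier results of these data known.

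IP and input of 1 number come from 1 lysate. The correlation of their deviations from the group means was -0.08 to 0.70, and 8 of 10 IP libraries were closest to their own input. Libraries are labelled by tumor number and nothing says more of the mice behind them, so that p-values measure the spread between these libraries. The floor of 3 counts covers counting error only.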

Additional observations from a re-analysis of the deposited data

Results flagged for a closer look

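Library values were compared within each group of 5 by the gap of the highest or lowest library to its neighbour, as a share of the whole range of the group (critical value 0.71). Of 28 groups of members, 3 had such a library, and chance gives about 1 in 20. Mmrn1 was 1.00 CPM in control IgG input 1, against 0.511 CPM in the next library. Mmrn1 was 4.72 CPM in 6-3-A6 input 4, against 0.870 CPM in the next, in the library that stood apart over all genes (TMM factor 0.678). Of the lymphatic markers with counts, Lyve1 and Reln were highest and Flt4 lowest of the 10 inputs there, and Prox1 and Pdpn lay within the range of the others. Egfl7 was 0 CPM in the same library, against 0.557 CPM in the next lowest.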

How the results depend on the processing

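The calls of IP over input were the same for all members under every alternative run, except Mmrn1 in 6-3-A6 tumors, which was called without the input of 6-3-A6 tumor 4. With the tumor as a replicate block, 7394 genes were called over the 20 libraries (5856 without), 4640 in control IgG (2163 without) and 3530 in 6-3-A6 tumors (2507 without), and the members called were 7, 7 and 6 as before. The tumors of the kept libraries alone gave 3416 genes. Leaving out 1 library at a time gave 1254 to 2935 genes in control IgG, with 1254 without IP 2, 1349 without IP 3 and 1417 without input 2, and 1580 to 3283 genes in 6-3-A6 tumors, the lowest without IP 4. In the 6 kept IP libraries (646 genes, 2 members), DESeq2 called 1242 genes and 2 members, no filter on low counts 1459 genes and 4 members, with Emcn (adjusted p = 0.00621) and Cd34 (adjusted p = 0.0197) added, the EC reference mean as a covariate 1 gene and 0 members, and leaving out 1 library 9 to 653 genes and 0 to 3 members, the fewest genes without 6-3-A6 IP 3, and 161 to 345 without 6-3-A6 IP 1 or 4 or control IgG IP 4. Emcn was also called without control IgG IP 2. A replicate block by number could not be fitted there, since the groups share only number 4. Numbers do not pair control IgG with 6-3-A6 mice (r between -0.33 and 0.37), and a replicate block called 0 genes in the 10 IP and in the 10 input libraries. Relative to Pecam1 and Cdh5 in place of the reference list, the differences in the kept libraries were 0.49 for Clec14a (0.24 with the list), -0.49 for Cd93 (-0.74), -0.36 for Mmrn2 (-0.60), -0.14 for Mmrn1 (-0.38), 0.92 for Egfl7 (0.68), 0.21 for Emcn (-0.03) and 0.02 for Cd34 (-0.22), so that Emcn and Cd34 changed sign. The cause of these changes was not tested. Low counts limit Mmrn1 and Egfl7 in input.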
